A study of Mus musculus with 9 samples.

Results

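The genes described here are 35 genes of glycolysis and of the response to low oxygen, measured in cultured heart cells of mouse embryos in which a DNA methyltransferase had been knocked down. They were chosen by name, as the rows of each count table whose Ensembl identifier carries 1 of the 35 gene symbols in GENCODE mouse release 21 (GRCm38). The choice was made with earlier results of these data known. All 35 were found among the 43629 gene rows, and all 35 passed the filter on low counts that left 16561 genes for testing. The cells came from ventricles of CD-1 mice, an outbred strain, at embryonic day 13.5. Ventricles were combined within litters and papain-digested, and cells that had not stuck to plastic within 1 h were plated. After 48 h in culture, lipofectamine RNAiMAX carried in 0.012 pmol of 1 of 3 reagents: a mix of 4 siRNAs to Dnmt3a (DNMT3a siRNA), a mix of 4 to Dnmt3b (DNMT3b siRNA), or AllStars negative control siRNA (control). Harvest followed 72 h later, with a magnetic sort for the surface protein VCAM1, and each group has 3 libraries, numbered 1 to 3. Every group thus shares the strain, the culture, the lipofection and the sort. As a model, these are primary cultures of pooled litters with a transient, partial knockdown, and the sort came only at harvest. Whether a group's libraries stem from different litters or cultures is not told by the labels, and if they do not, the p-values reflect technical spread alone.

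Glycolysis breaks glucose down to pyruvate, which is either burned in mitochondria or turned into lactate and exported. Many of its genes answer to the hypoxia-inducible factors (HIF), pairs of a labile alpha subunit, made by Hif1a or Epas1, and a stable partner. When oxygen is plentiful, prolyl hydroxylases made by the Egln genes mark the alpha subunit for destruction, and when oxygen falls the subunit persists and switches on transporters, glycolytic enzymes and genes such as Vegfa and Bnip3. This control acts on the HIF protein, which RNA counts do not measure. The embryonic ventricle develops at low oxygen and draws much of its energy from glycolysis.

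The libraries held 27852412 to 35896018 reads in genes. Dnmt3a stood at 40.3, 52.9 and 46.3 CPM (gene counts relative to the library's total, TMM-scaled) with DNMT3a siRNA, 215, 234 and 235 CPM with DNMT3b siRNA, and 232, 269.6 and 275 CPM in controls, and its log2 fold change after its own siRNA was -2.48 (adjusted p = 3.42e-06). Dnmt3b stood at 4.87, 4.70 and 4.71 CPM with DNMT3a siRNA, 1.17, 2.43 and 1.51 CPM with DNMT3b siRNA, and 4.32, 4.26 and 4.33 CPM in controls (-1.34 after its own siRNA, adjusted p = 0.00816). Each siRNA thus lowered its own target. All 10 cardiomyocyte markers were detected, and their sum lay between 4165 and 5039 CPM with DNMT3a siRNA, 5338 and 6516 CPM with DNMT3b siRNA, and 1919 and 2487 CPM in controls. Of those 10 markers, 8 passed the test as higher after DNMT3a siRNA, against 4.87% of all tested genes, and 9 after DNMT3b siRNA, against 3.52%, and the summed level of every knockdown library exceeded that of every control. All 8 fibroblast markers were detected too, with sums of 38333 to 42174 CPM, 36202 to 43000 CPM, and 37415 to 57026 CPM in the same groups, and control 2 was the highest of the 9 libraries. Although the sums overlapped, Tcf21, Dcn and Pdgfra fell after DNMT3a siRNA (5.22% of all genes were lower) and Tcf21 and Dcn after DNMT3b siRNA (2.12% of all genes). The 7 endothelial markers summed to 144 to 172 CPM, 202 to 221 CPM, and 142 to 185 CPM, the 8 macrophage markers to 7.60 to 15.4 CPM, 17.9 to 43.1 CPM, and 17.5 to 49.2 CPM, and the 6 epicardial markers to 997 to 1312 CPM, 917 to 1363 CPM, and 1556 to 1835 CPM. The macrophage markers Csf1r, Adgre1 and Mrc1 and the epicardial markers Aldh1a2, Msln and Upk1b fell after DNMT3a siRNA, while after DNMT3b siRNA the epicardial marker Upk3b fell and the endothelial marker Kdr rose. Of the 6 erythroid markers, Hbb-bt, Hbb-bs and Hba-a2 were at 0 in all 9 libraries and the sum did not pass 1.33 CPM.

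Of the 4 genes of glucose entry, 3 passed against controls after both knockdowns, and the glucose transporter Slc2a1 passed after neither. Of all tested genes, 10.1% passed after DNMT3a siRNA and 5.64% after DNMT3b siRNA. Hk1 and Hk2, the hexokinases that trap glucose in the cell, rose about as much after either siRNA, and Slc2a3, a high-affinity glucose transporter, fell. Ldhb, a lactate dehydrogenase subunit, rose after DNMT3b siRNA. The calls after DNMT3b siRNA did not hold in a fit without control 3. Between the knockdowns, Hif1a and the aldolase gene Aldoa were lower after DNMT3a siRNA than after DNMT3b siRNA. In bulk RNA, fewer cells of a type and less RNA per cell cannot be told apart, for these and all later values.

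The other pattern was strongest in a single library. Control 2 held more RNA of most of these genes than controls 1 and 3, and so set the spread of the control group. The 35 genes took 0.377%, 0.446% and 0.380% of the gene reads in DNMT3a 1 to 3, 0.487%, 0.525% and 0.555% in DNMT3b 1 to 3, and 0.336%, 0.615% and 0.356% in control 1 to 3. Control 2 was thus the highest of the 9 libraries and control 1 the lowest, while the 3 DNMT3b libraries lay above the 3 DNMT3a libraries. In the following, 3 values of a group are always those of libraries 1, 2 and 3 in that order, in TMM-scaled CPM.

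**Figure D1:**
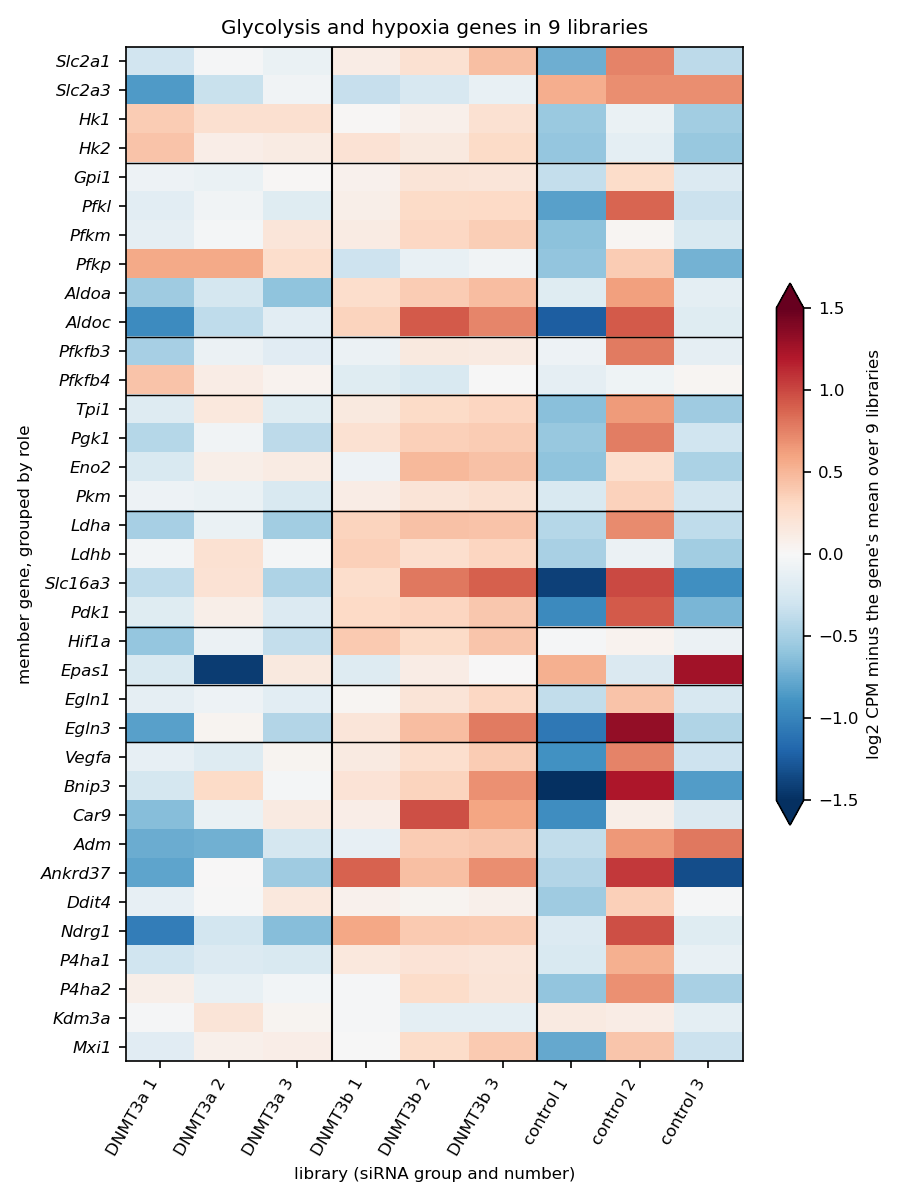
Each row is 1 of the 35 genes, grouped by role and divided by black lines, and each column 1 of the 9 libraries. The colour is the library's log2 CPM minus the gene's mean over the 9 libraries, red above and blue below it; control 2 is red in most rows and control 1 blue in most, and the DNMT3b columns are redder than the DNMT3a columns.

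Against the mean of controls 1 and 3, on the log2 scale, control 2 was higher for 33 of the 35 genes, and more than 1 higher for 15 of them (42.9%). Of all 16561 tested genes, 3.30% exceeded that mark. The 35 genes were chosen with earlier results of these data known, so these shares and ranks describe them and test nothing. The median excess was 0.79 over the 35 genes and about 0 over all tested genes. No other library lay more than 1 above the mean of its group's other libraries for any of the 35, apart from control 3 for 1 gene. Smaller excesses were seen elsewhere. DNMT3a 2 lay above the mean of DNMT3a 1 and 3 for 25 of the 35, with a median of 0.15. DNMT3b 3 lay above the mean of DNMT3b 1 and 2 for 32, with a median of 0.10. On the low side, control 1 lay more than 1 below the mean of controls 2 and 3 for 8 of the 35. Of all tested genes, 2.66% did so, and that mean includes control 2. Among all 16561 genes ranked by the control 2 excess, 5 of the 35 stood in the first 100 and 20 in the first 1000. The largest excess was that of Bnip3 (rank 25, 5.36-fold), a mitochondrial protein of mitophagy and cell death. Next came Slc16a3, a lactate exporter (4.44-fold), Egln3, a HIF prolyl hydroxylase (4.22-fold), Ankrd37, an ankyrin repeat protein (3.85-fold), and Pdk1, the kinase that shuts pyruvate out of the mitochondrial oxidation route (3.33-fold). At the other end Kdm3a, Hif1a and Slc2a3 differed by 0.08 to 0.12, Pfkfb4 by -0.01, and Epas1 was lower in control 2 by 1.11. The fibroblast marker sum was also highest in control 2, at 57026 CPM against 37415 and 39509 CPM in controls 1 and 3, and the endothelial marker sum at 185 CPM against 142 and 148 CPM. The cardiomyocyte marker sum was 2487 CPM against 1919 and 2194 CPM. The part of these markers in the excess was not tested.

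HIF binds short DNA words with the core ACGTG or GCGTG. The promoter stretches of the 4 genes with the largest control 2 excess are shown for this reason, from RefSeq (GRCm38.p6), 5′ to 3′ on the gene's strand, with both words and their reverse complements CACGT and CACGC in capitals. The word CACGTG holds ACGTG and CACGT overlapped and is also the E-box of other factors.
Bnip3, chr7:138909524-138909623, minus strand: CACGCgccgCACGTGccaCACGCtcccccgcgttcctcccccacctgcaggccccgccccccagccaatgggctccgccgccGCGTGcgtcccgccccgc
Slc16a3, chr11:120948967-120949066, plus strand: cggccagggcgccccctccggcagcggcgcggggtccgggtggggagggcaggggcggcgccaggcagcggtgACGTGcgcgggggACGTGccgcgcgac
Egln3, chr12:54204004-54204103, minus strand: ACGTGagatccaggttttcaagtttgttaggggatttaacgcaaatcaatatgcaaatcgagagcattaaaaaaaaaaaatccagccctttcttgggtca
Ankrd37, chr8:45999992-46000091, minus strand: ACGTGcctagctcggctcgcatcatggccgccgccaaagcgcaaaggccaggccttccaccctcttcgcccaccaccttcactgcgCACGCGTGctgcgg
Each stretch is the 100 bases, within the 250 before the start site, that held the most words. Their word counts were thus chosen to be high. The Bnip3 stretch carried 5 words, that of Slc16a3 2, that of Egln3 1 and that of Ankrd37 3, where its whole window has 4. RefSeq windows of 250 bases before to 50 after a start site were at hand for 32 of the 35 genes. At least 1 word lay in 36 of their 48 windows (75%), against 43.8% of all 32851 windows. Windows rich in CG hold such words often: of the 8701 windows with at least the 20 CG pairs that were the median of the 48, 73.6% had a word. Some of the 48 have fewer CG pairs, so the 2 sets are not alike. By gene, a word lay in 29 of the 32 (90.6%). The share was 46.7% of all 27025 genes, and 74.9% of the 7772 genes with a CG-rich window, counted in such windows. A gene with several windows has more places for a word. These matches are letters in a window and say nothing on binding.

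Of the transporters and hexokinases, Slc2a3 (ENSMUSG00000003153, chromosome 6, 122727809 to 122801640, minus strand) had 23.1, 33.1 and 40.2 CPM with DNMT3a siRNA, 33.0, 35.3 and 38.6 CPM with DNMT3b siRNA, and 61.1, 67.9 and 67.7 CPM in controls. Its level was 2.04-fold lower after DNMT3a siRNA (log2 -1.03 ± 0.17, adjusted p = 0.00402) and 1.84-fold lower after DNMT3b siRNA (-0.88 ± 0.17, adjusted p = 0.0127), both against controls. Every library of either knockdown lay below every control, control 2 included. Hk1 (ENSMUSG00000037012, chromosome 10, 62268855 to 62379908, minus strand), the broadly expressed hexokinase, had 176, 159 and 159 CPM with DNMT3a siRNA, 136, 141 and 157 CPM with DNMT3b siRNA, and 91.2, 125 and 93.6 CPM in controls. Hk2 (ENSMUSG00000000628, chromosome 6, 82725025 to 82774454, minus strand), the insulin-responsive and HIF-responsive hexokinase of muscle, had 137, 109 and 111 CPM with DNMT3a siRNA, 119, 113 and 124 CPM with DNMT3b siRNA, and 67.9, 92.3 and 68.5 CPM in controls. For both genes all 6 knockdown libraries stood above all 3 controls. Hk1 rose 1.59-fold after DNMT3a siRNA (0.67 ± 0.12, adjusted p = 0.00626) and 1.40-fold after DNMT3b siRNA (0.49 ± 0.12, adjusted p = 0.0395). Hk2 rose 1.56-fold (0.64 ± 0.13, adjusted p = 0.0109) and 1.55-fold (0.64 ± 0.13, adjusted p = 0.0168). The DNMT3a and DNMT3b groups share the 3 controls, so these are not independent results, and between the knockdowns none of the 3 genes passed the test. Slc2a1, the main glucose transporter of proliferating cells, had 97.9, 118 and 111 CPM with DNMT3a siRNA, 129, 140.1 and 164 CPM with DNMT3b siRNA, and 72.2, 201 and 90.9 CPM in controls. Its controls spanned the knockdown values, and it passed against controls after neither siRNA (-0.15 ± 0.35, adjusted p = 0.843 after DNMT3a siRNA and 0.25 ± 0.35, adjusted p = 0.735 after DNMT3b siRNA).

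**Figure D2:**
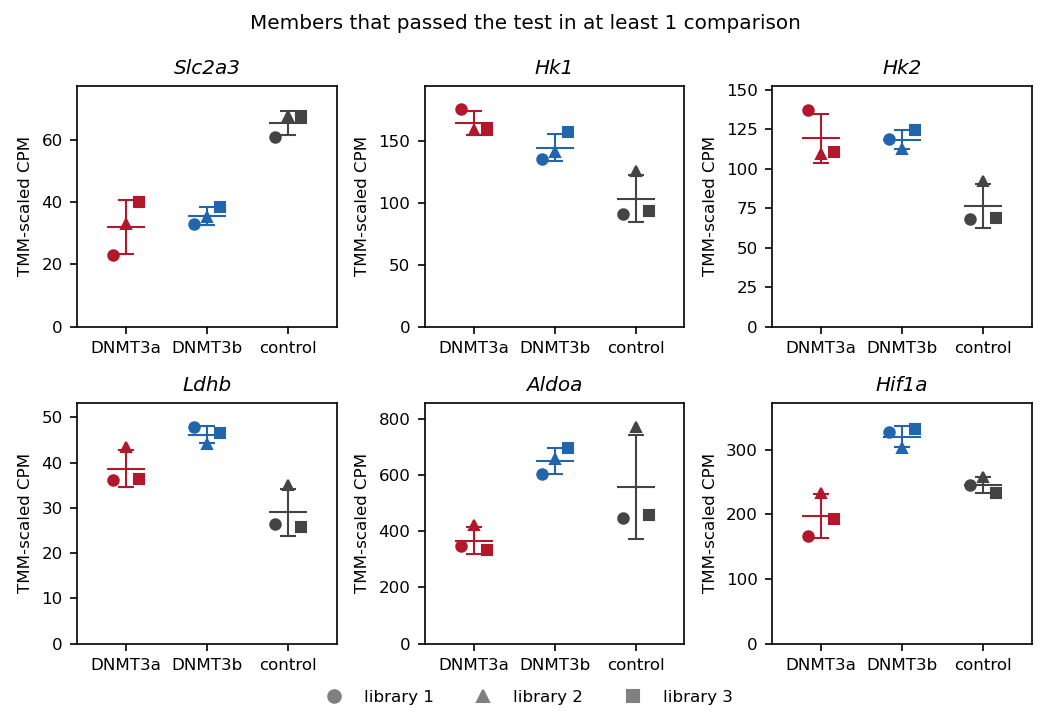
TMM-scaled CPM of the 6 genes that passed the test in at least 1 comparison, 1 point per library with its number as the marker shape, and the group mean with its SD as lines (n = 3). All knockdown libraries lie below the controls for Slc2a3 and above them for Hk1 and Hk2, and for Hif1a and Aldoa all DNMT3a libraries lie below all DNMT3b libraries.

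In upper glycolysis, Aldoa (ENSMUSG00000030695, chromosome 7, 126795234 to 126800751, minus strand), which encodes the chief aldolase of these cells, had 346, 420.2 and 332 CPM with DNMT3a siRNA, 602, 655 and 695 CPM with DNMT3b siRNA, and 445, 769 and 456 CPM in controls. DNMT3a libraries lay below all others, and control 2 above all others. The log2 fold change was -0.83 ± 0.20, adjusted p = 0.0304 for DNMT3a over DNMT3b siRNA, a 1.78-fold lower level, and -0.61 ± 0.20, adjusted p = 0.0870 for DNMT3a siRNA over control. Pfkp, the platelet form of phosphofructokinase, the enzyme of the committed step, had 208, 208 and 169.6 CPM with DNMT3a siRNA, 113, 130.5 and 135 CPM with DNMT3b siRNA, and 93.0, 183 and 86.2 CPM in controls. After DNMT3a siRNA it was above all DNMT3b libraries and above controls 1 and 3, while control 2 lay within the DNMT3a range. It passed neither over control (0.69 ± 0.27, adjusted p = 0.150) nor over DNMT3b siRNA (0.63 ± 0.27, adjusted p = 0.185). Pfkl, the liver form, had 118, 127 and 116 CPM with DNMT3a siRNA, 140.5, 161 and 163 CPM with DNMT3b siRNA, and 75.1, 242 and 105 CPM in controls. Pfkm, the muscle form, had 48.5, 51.8 and 60.2 CPM with DNMT3a siRNA, 57.6, 66.0 and 68.5 CPM with DNMT3b siRNA, and 34.6, 54.1 and 45.2 CPM in controls. Control 2 exceeded every other library for Pfkl, and the DNMT3b libraries all exceeded the controls for Pfkm (0.52 ± 0.15, adjusted p = 0.0725). Aldoc, the brain form of aldolase, had 4.64, 6.88 and 8.05 CPM with DNMT3a siRNA, 11.4, 17.1 and 14.9 CPM with DNMT3b siRNA, and 3.79, 17.1 and 7.92 CPM in controls. Gpi1, which turns glucose phosphate into fructose phosphate, had 165, 163 and 177 CPM with DNMT3a siRNA, 182, 199.5 and 197 CPM with DNMT3b siRNA, and 136, 211 and 151 CPM in controls. Neither Aldoc nor Gpi1 passed in any of the 3 comparisons, and control 2 was at the top of the 9 libraries for Gpi1 and level with DNMT3b 2 for Aldoc. Of the enzymes that make and remove the sugar phosphate activating phosphofructokinase, Pfkfb3 had 44.3 to 58.8 CPM with DNMT3a siRNA, 59.0 to 69.3 CPM with DNMT3b siRNA, and 57.1 to 107 CPM in controls, with control 2 the highest. Pfkfb4 had 5.13, 4.12 and 3.96 CPM with DNMT3a siRNA, 3.35, 3.24 and 3.79 CPM with DNMT3b siRNA, and 3.46, 3.64 and 3.88 CPM in controls. For Pfkfb4 the DNMT3a libraries lay above the other 6 without passing the test (0.27 ± 0.16, adjusted p = 0.350 over control).

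In lower glycolysis, Tpi1, the triose phosphate isomerase, had 207, 264 and 208 CPM with DNMT3a siRNA, 262, 289 and 295 CPM with DNMT3b siRNA, and 153, 368 and 164 CPM in controls. Pgk1, a phosphoglycerate kinase that makes ATP, had 18.3, 23.9 and 18.7 CPM with DNMT3a siRNA, 29.0, 31.7 and 32.2 CPM with DNMT3b siRNA, and 16.7, 42.0 and 20.0 CPM in controls. Eno2, an enolase, had 49.3, 61.5 and 63.1 CPM with DNMT3a siRNA, 54.7, 81.2 and 78.8 CPM with DNMT3b siRNA, and 38.04, 68.9 and 41.7 CPM in controls. Control 2 topped the 9 libraries for Tpi1 and Pgk1, and controls 1 and 3 were the lowest for Tpi1 and Eno2. Pkm, the pyruvate kinase, had 573, 563 and 514 CPM with DNMT3a siRNA, 650.2, 690.3 and 714 CPM with DNMT3b siRNA, and 515, 768 and 499 CPM in controls. None of the 4 passed in any comparison of groups, and their log2 fold changes lay between -0.37 and 0.23 after DNMT3a siRNA and between 0.21 and 0.53 after DNMT3b siRNA, both over control.

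At the branch to lactate, Ldhb (ENSMUSG00000030246, chromosome 6, 142490249 to 142507957, minus strand), the subunit that favours lactate use, had 36.2, 43.3 and 36.4 CPM with DNMT3a siRNA, 47.7, 44.2 and 46.6 CPM with DNMT3b siRNA, and 26.4, 35.02 and 25.7 CPM in controls. All knockdown libraries stood above all controls. It rose 1.59-fold after DNMT3b siRNA (0.67 ± 0.13, adjusted p = 0.0115) and stood 1.33-fold higher without passing after DNMT3a siRNA (0.41 ± 0.13, adjusted p = 0.0636). Ldha, the subunit that favours lactate formation, had 247, 326 and 242 CPM with DNMT3a siRNA, 439.6, 472 and 471 CPM with DNMT3b siRNA, and 260.1, 571 and 268 CPM in controls. Slc16a3 had 110.4, 168 and 104 CPM with DNMT3a siRNA, 173, 249.7 and 268 CPM with DNMT3b siRNA, and 54.3, 286 and 76.2 CPM in controls. Pdk1 had 36.3, 43.7 and 35.8 CPM with DNMT3a siRNA, 50.9, 51.8 and 54.6 CPM with DNMT3b siRNA, and 21.3, 77.9 and 25.6 CPM in controls. In all 3 of these genes control 2 was the highest library, the DNMT3a libraries lay below the DNMT3b libraries, and no comparison passed. For Slc16a3 and Pdk1 controls 1 and 3 lay below all 7 other libraries.

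Of the HIF alpha subunits, Hif1a (ENSMUSG00000021109, chromosome 12, 73901375 to 73947530, plus strand) had 167, 234 and 193 CPM with DNMT3a siRNA, 327, 302 and 332 CPM with DNMT3b siRNA, and 245, 257 and 234 CPM in controls. It was 1.62-fold lower after DNMT3a siRNA than after DNMT3b siRNA (-0.69 ± 0.11, adjusted p = 0.00509), and the groups did not overlap. The controls lay between the knockdowns, with control 3 level with DNMT3a 2, and neither knockdown passed against them (-0.31 ± 0.11, adjusted p = 0.113 for DNMT3a siRNA and 0.38 ± 0.11, adjusted p = 0.0744 for DNMT3b siRNA). Control 2 differed little from controls 1 and 3 here. Epas1 (ENSMUSG00000024140, chromosome 17, 86753700 to 86833410, plus strand), the alpha subunit known best from endothelium, had 32.4, 14.1 and 41.9 CPM with DNMT3a siRNA, 33.2, 41.0 and 38.2 CPM with DNMT3b siRNA, and 54.9, 32.7 and 91.2 CPM in controls. DNMT3a 2 and control 2 were each the lowest of their group, the groups overlapped, and no comparison passed (-1.02 ± 0.46, adjusted p = 0.224 for DNMT3a siRNA over control). Of the hydroxylases, Egln1, the main sensor of oxygen for HIF, had 88.5, 91.8 and 87.1 CPM with DNMT3a siRNA, 99.2, 111 and 120.2 CPM with DNMT3b siRNA, and 75.0, 130.4 and 81.9 CPM in controls. Egln3, itself a HIF target, had 19.6, 35.8 and 25.6 CPM with DNMT3a siRNA, 39.3, 47.9 and 59.7 CPM with DNMT3b siRNA, and 16.4, 86.5 and 25.5 CPM in controls. For both, control 2 was the highest library, the DNMT3b libraries lay above the DNMT3a libraries, and no comparison passed.

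Among the other hypoxia responsive genes, Vegfa, the vascular growth factor, had 212, 202 and 238 CPM with DNMT3a siRNA, 254, 275 and 302 CPM with DNMT3b siRNA, and 123, 388 and 187 CPM in controls. Bnip3 (ENSMUSG00000078566, chromosome 7, 138890836 to 138909519, minus strand) had 18.9, 27.8 and 22.3 CPM with DNMT3a siRNA, 26.2, 28.7 and 36.7 CPM with DNMT3b siRNA, and 7.55, 52.9 and 12.7 CPM in controls. Their control groups ran from the lowest to the highest value of the 9 libraries. Bnip3 is uncertain, since 94.2% of its transcript matches other loci and reads that map to several places were not counted. Adm, which encodes the vasodilator peptide adrenomedullin, had 16.8, 17.1 and 23.5 CPM with DNMT3a siRNA, 25.9, 36.9 and 37.3 CPM with DNMT3b siRNA, and 21.8, 44.4 and 48.8 CPM in controls. DNMT3a libraries were lower than DNMT3b libraries and than controls 2 and 3 (-1.0 ± 0.30, adjusted p = 0.0727 over control). Ndrg1, a stress-induced protein of differentiation, had 30.9, 52.3 and 40.8 CPM with DNMT3a siRNA, 95.1, 83.5 and 82.7 CPM with DNMT3b siRNA, and 55.2, 124 and 56.0 CPM in controls. All DNMT3a libraries lay below all others, without passing over control (-0.92 ± 0.33, adjusted p = 0.130) or over DNMT3b siRNA (-1.07 ± 0.33, adjusted p = 0.0884). Car9, a carbonic anhydrase of the cell surface that handles acid, had 2.27, 3.33 and 3.93 CPM with DNMT3a siRNA, 3.84, 7.02 and 5.40 CPM with DNMT3b siRNA, and 1.84, 3.80 and 3.07 CPM in controls. Its DNMT3b libraries exceeded all controls (0.90 ± 0.31, adjusted p = 0.118).

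P4ha1, a collagen prolyl hydroxylase subunit, had 349.5, 375 and 368 CPM with DNMT3a siRNA, 482, 498 and 488 CPM with DNMT3b siRNA, and 368, 624 and 399.6 CPM in controls. P4ha2, its relative, had 55.0, 48.0 and 50.2 CPM with DNMT3a siRNA, 50.8, 62.3 and 59.2 CPM with DNMT3b siRNA, and 34.2, 83.3 and 36.8 CPM in controls. Control 2 was the highest library of both genes. Mxi1, an antagonist of MYC, had 20.2, 23.9 and 24.3 CPM with DNMT3a siRNA, 22.6, 27.4 and 29.8 CPM with DNMT3b siRNA, and 13.3, 30.3 and 18.2 CPM in controls. Ankrd37 was scarce, with 0.617, 1.12 and 0.752 CPM with DNMT3a siRNA, 2.12, 1.55 and 1.86 CPM with DNMT3b siRNA, and 0.808, 2.41 and 0.407 CPM in controls, and rested on 11 to 74 counts per library. Control 2 was again at the top of both. Ddit4, an inhibitor of mTOR signalling, ranged over 59.5 to 72.7 CPM with DNMT3a siRNA, 66.7 to 68.2 CPM with DNMT3b siRNA, and 44.6 to 82.9 CPM in controls. Kdm3a, a histone demethylase, ranged over 58.9 to 68.2 CPM, 54.1 to 59.0 CPM, and 53.9 to 65.8 CPM in the same groups. Control 2 was the highest library for Ddit4 and lay between controls 1 and 3 for Kdm3a. The log2 fold changes of both genes lay between -0.14 and 0.17 in the 3 comparisons. None of these 11 hypoxia responsive genes passed in any of them.

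**Figure D3:**
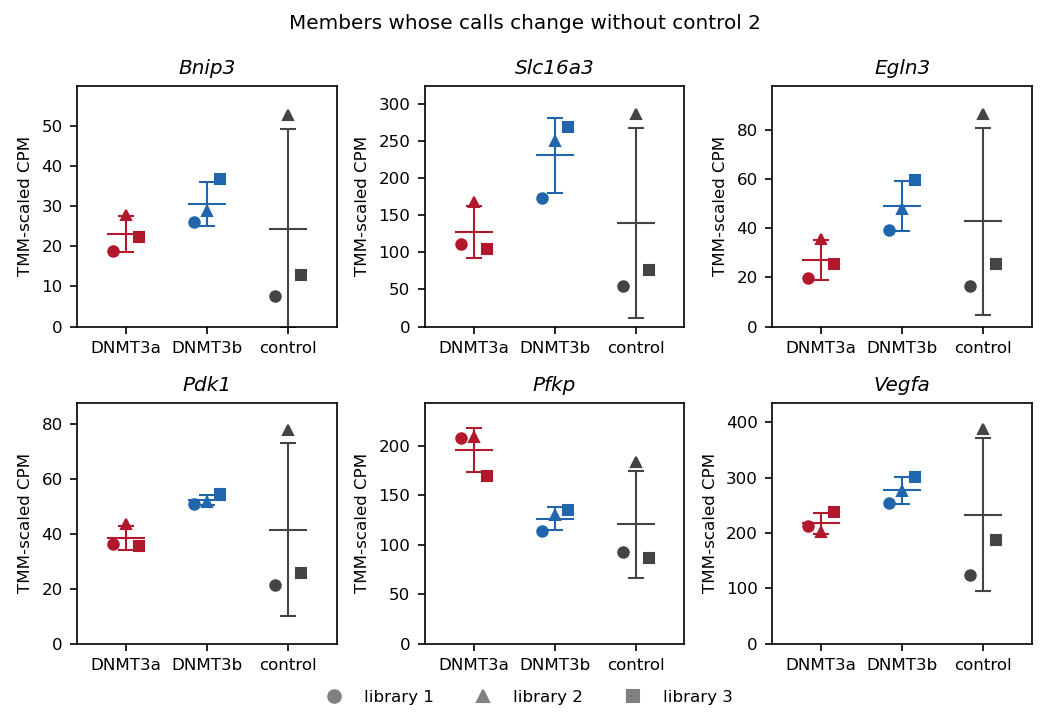
TMM-scaled CPM of 6 genes whose result against controls depends on control 2, 1 point per library with its number as the marker shape, and the group mean with its SD as lines (n = 3; lines end at 0). The triangle of control 2 lies far above the circle and square of controls 1 and 3 in each panel, and above all other libraries except for Pfkp.

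After DNMT3a siRNA against controls, Hk1 and Hk2 rose and Slc2a3 fell, and the other 32 of the 35 genes did not pass, while 10.1% of all tested genes did (4.87% higher and 5.22% lower). Libraries of the groups did not overlap for 7 genes, 4 higher (Hk1, Hk2, Ldhb and Pfkfb4) and 3 lower (Slc2a3, Aldoa and Ndrg1). Over all tested genes that share was 26.7% (14.1% higher and 12.6% lower), so 7 of 35 is no more than the background. The median log2 fold change was -0.11 over the 35 genes and 0.02 over all tested genes, and 12 of the 35 were positive. Same-numbered libraries of these 2 groups deviated together, so the number was also fitted as a block. That fit held all 9 libraries, so the DNMT3b libraries, whose numbers hardly pair with the others, enter its estimates and p-values too. With the block 6 of the 35 passed, against 14.3% of all genes: Ldhb (0.42, adjusted p = 0.0277) joined the higher ones, and Aldoa (-0.58, adjusted p = 0.0251) and Adm (-0.94, adjusted p = 0.00616) joined Slc2a3 as lower. Within number 1, 24 of the 35 genes were higher in the DNMT3a library than in the control, and within number 3, 25 were. Within number 2, whose control is control 2, only 6 were. Of all tested genes, 51.9%, 52.7% and 52.1% were higher within numbers 1, 2 and 3.

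Control 2 was high for most of the 35 genes, so leaving it out raises most of their fold changes and narrows their control spread. Counts without control 2, here and below, thus describe its weight and are no separate test of the 35. Without control 2, 9 of the 35 genes passed after DNMT3a siRNA, against 10.9% of all genes. Of these 8 were higher (5.31% of all genes) and 1 lower (5.55% of all genes). Slc2a3 (-1.003, adjusted p = 0.00951) was again lower, and Hk1 and Hk2 again higher. Pfkp (1.12, adjusted p = 0.000256), Bnip3 (1.19, adjusted p = 0.0188), Pdk1 (0.72, adjusted p = 0.00405), Ldhb (0.57, adjusted p = 0.00704), P4ha2 (0.52, adjusted p = 0.0122) and Tpi1 (0.51, adjusted p = 0.0193) also passed as higher. The sign of the log2 fold change turned for 15 of the 35 genes, and their median was then 0.37. Hk1 and Hk2 passed in each of the 16 alternative fits and Slc2a3 in 15 of them, all but the fit without any library numbered 2 (adjusted p = 0.0524).

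**Figure D4:**
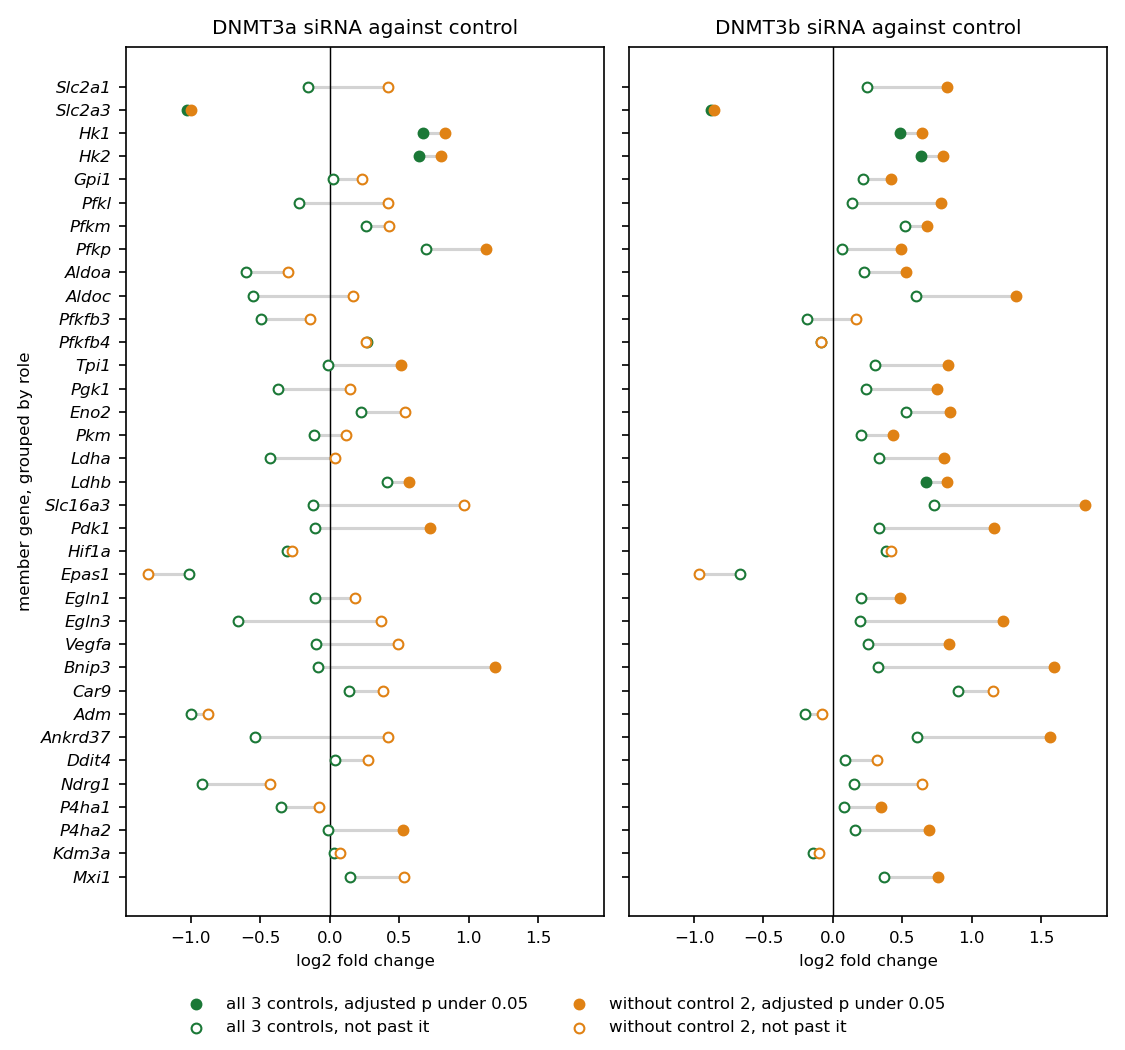
Log2 fold change of each gene against controls for DNMT3a siRNA (left) and DNMT3b siRNA (right), with all 3 controls (green) and without control 2 (orange), filled where the adjusted p is under 0.05. Most points move to the right without control 2, while those of Slc2a3, Hif1a, Kdm3a and Pfkfb4 hardly move and Epas1 moves left.

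After DNMT3b siRNA against controls, Hk1, Hk2 and Ldhb rose, Slc2a3 fell, and the other 31 genes did not pass, while 5.64% of all tested genes did (3.52% higher and 2.12% lower). Groups did not overlap for 7 genes, 6 higher (Hk1, Hk2, Ldhb, Pfkm, Hif1a and Car9) and Slc2a3 lower, against 26.1% of all genes (13.8% higher and 12.3% lower). The median log2 fold change was 0.24 over the 35 genes and 0.0018 over all tested genes, and 29 of the 35 were positive. Without control 2, 26 passed, against 10.5% of all genes, a count set in part by the high values of control 2. Of the 26, 25 were higher (5.96% of all genes) and Slc2a3 was lower (4.55% of all genes). The 9 that still did not pass were Pfkfb3, Pfkfb4, Hif1a, Epas1, Car9, Adm, Ddit4, Ndrg1 and Kdm3a. The largest of the 25 were Slc16a3 (1.82, adjusted p = 0.00987), Bnip3 (1.60, adjusted p = 0.00632), Ankrd37 (1.56, adjusted p = 0.0257), Aldoc (1.32, adjusted p = 0.0438), Egln3 (1.23, adjusted p = 0.0447) and Pdk1 (1.16, adjusted p = 0.000312). All 6 of the upper glycolysis genes, all 4 of lower glycolysis, all 4 of the lactate branch and both Egln genes were among the 26. Without control 1, 2 of the 35 passed (3.16% of all genes), and 1 passed without DNMT3b 2 (2.28% of all genes) and 1 without DNMT3b 3 (1.71% of all genes). Without control 3, 0 of the 35 passed by edgeR (2.65% of all genes), although 6 were higher and 2 lower at an unadjusted p under 0.05 (DESeq2 was not run without that library). Within numbers 1 and 3, 30 and 31 of the 35 genes were higher in the DNMT3b library than in the control, and within number 2, 9 were. Of all tested genes, 50.8%, 50.1% and 50.3% were higher within numbers 1, 2 and 3. No gene passed in all 16 alternative fits. Ldhb passed in 14 of them, Slc2a3 in 13, Hk2 in 12 and Hk1 in 7. Their log2 fold changes kept their signs in all of these fits, at 0.59 to 0.84 for Ldhb, -0.96 to -0.83 for Slc2a3, 0.56 to 0.82 for Hk2 and 0.40 to 0.65 for Hk1.

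Between the knockdowns, with no control library in the contrast, Hif1a and Aldoa were lower after DNMT3a siRNA than after DNMT3b siRNA, and the other 33 genes did not pass, while 9.55% of all genes did (4.47% higher and 5.08% lower). The libraries of the knockdowns did not overlap for 23 genes, 20 of them lower after DNMT3a siRNA and 3 higher (Hk1, Pfkp and Pfkfb4). Over all tested genes the groups did not overlap for 32.3% (16.2% higher and 16.1% lower). The median log2 fold change was -0.35 over the 35 genes and 0.01 over all tested genes, and 30 of the 35 were negative. The control libraries enter this fit only through the estimate of spread, and without control 2, 12 genes passed, against 11.6% of all genes. These were Pfkp, higher (5.37% of all genes), and 11 lower (6.22% of all genes). With only the 6 knockdown libraries fitted, 16 passed, against 12.0% of all genes, again with Pfkp higher (0.63, adjusted p = 0.00637). The 15 lower ones included Ldha (-0.76, adjusted p = 0.00476), Ndrg1 (-1.08, adjusted p = 0.00884), P4ha1 (-0.43, adjusted p = 0.00873), Pdk1 (-0.44, adjusted p = 0.0186), Adm (-0.80, adjusted p = 0.0225) and Vegfa (-0.35, adjusted p = 0.0415). Hif1a passed in all 16 alternative fits. Aldoa passed in 10 and not without the filter on low counts or without DNMT3a 1, DNMT3a 3 or any 1 of the DNMT3b libraries, while its log2 fold change lay between -0.94 and -0.76 in all of them. The endothelial markers summed to 144 to 172 CPM with DNMT3a siRNA against 202 to 221 CPM with DNMT3b siRNA, and the cardiomyocyte markers to 4165 to 5039 CPM against 5338 to 6516 CPM, without overlap. The macrophage markers, at 7.60 to 15.4 CPM against 17.9 to 43.1 CPM, did not overlap either. The part of these 3 marker lists in these differences was not tested.

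**Figure D5:**
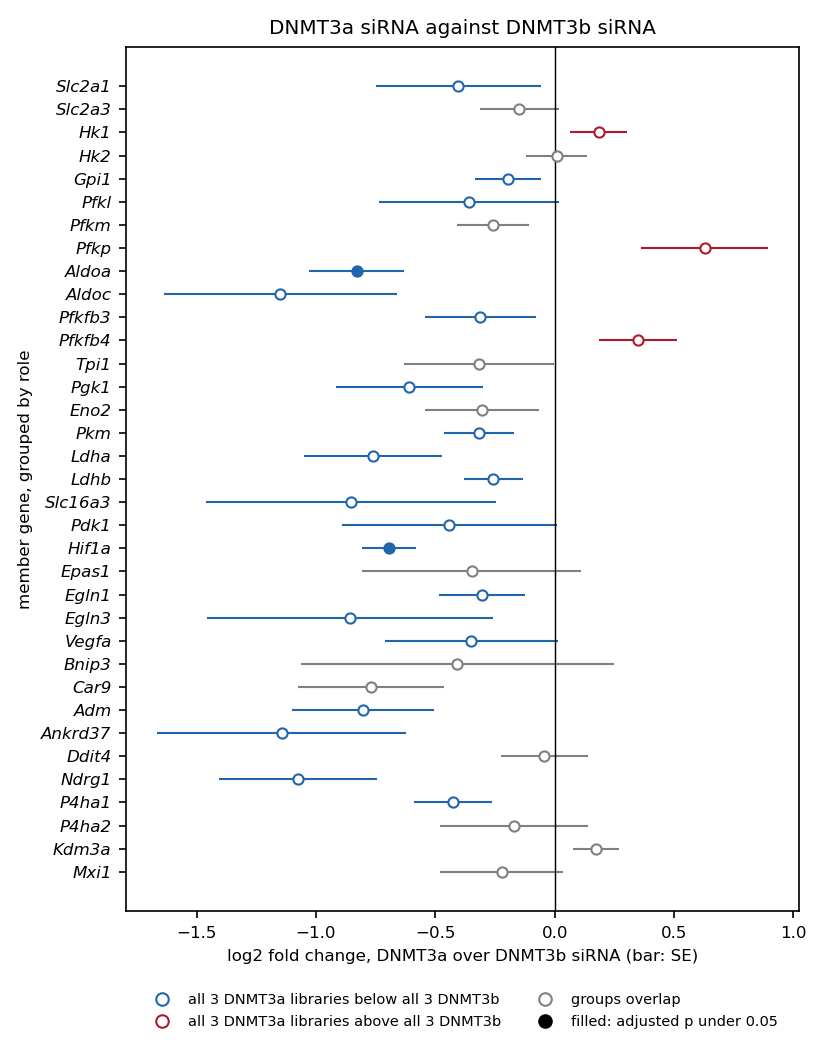
Log2 fold change of each gene, DNMT3a over DNMT3b siRNA, with its standard error as a bar, from the fit of all 9 libraries. Blue genes have all 3 DNMT3a libraries below all 3 DNMT3b libraries, red ones above, and grey ones overlap; Hif1a and Aldoa are filled because their adjusted p is under 0.05.

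Where a step has several enzyme forms, their shares differed between groups for some steps and hardly for others. Shares were taken per length of all annotated exons of a gene (TPM), and their size depends on that length. For Pfkp these exons span 13401 bases and the longest coding transcript 4145. The same lengths are 6675 and 3730 for Pfkl, 3340 and 2879 for Pfkm, 7245 and 3959 for Slc2a3, and 3506 and 3260 for Slc2a1. By exon length, Pfkp made up 32.5%, 31.0% and 26.3% of the phosphofructokinase RNA after DNMT3a siRNA. It made up 18.1%, 18.2% and 18.3% after DNMT3b siRNA, and 24.3%, 20.7% and 17.98% in controls. The DNMT3a libraries lay above the other 6. Ldhb made up 23.6%, 21.9% and 24.1% of the lactate dehydrogenase RNA after DNMT3a siRNA, 18.6%, 16.5% and 17.3% after DNMT3b siRNA, and 17.6%, 11.5% and 16.8% in controls. DNMT3a libraries were again above the rest, and control 2 was lowest. Slc2a3 made up 10.2%, 11.9% and 14.9% of the RNA of the glucose transporters Slc2a1 and Slc2a3 after DNMT3a siRNA, 11.0%, 10.9% and 10.2% after DNMT3b siRNA, and 29.0%, 14.0% and 26.5% in controls. Controls 1 and 3 stood well above the knockdowns, and control 2, where Slc2a1 was highest, lay inside the DNMT3a range. Hk1 stayed between 44.5% and 50.4% of the hexokinase RNA of Hk1 and Hk2 in every library. Aldoa made up at least 97.7% of the aldolase RNA of Aldoa and Aldoc. By TPM, Aldoa was the most abundant of the 35 genes (347 ± 89.1 TPM after DNMT3a siRNA, 564 ± 57.5 TPM after DNMT3b siRNA and 528 ± 168 TPM in controls; SD, n = 3). The scarcest were Pfkfb4, Ankrd37 and Car9, with group means of 1.51 to 5.81 TPM.

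Counts of 7 of the 35 genes are uncertain because their transcripts match other loci at 95% identity or more over at least 200 bases, mostly pseudogenes: Bnip3 (94.2% of the transcript), Ldhb (76.8%), Pgk1 (68.8%), Pkm (65.5%), Ldha (55%), Gpi1 (50.2%) and Tpi1 (19.3%). Reads that fit a copy equally well were not counted in any gene. The strand setting of the counting is not given in the sources used here, so genes that overlap others are uncertain too. These include Pfkp, which shares 748 bases with Pitrm1, Hif1a, which shares 330 bases with Gm15283, and Hk1, which shares 157 bases with Hk1os.

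Of 40 further tested genes of glycolysis, lactate and pyruvate, 8 were higher and 3 lower after DNMT3a siRNA, against 4.87% and 5.22% of all tested genes. After DNMT3b siRNA 8 were higher and 0 lower by edgeR, against 3.52% and 2.12% of all tested genes. For that 0, 1 gene was lower at an unadjusted p under 0.05, and DESeq2 gave 0 as well. Leaving out 1 library moved these counts and the shares of all genes. The 8 higher after DNMT3a siRNA became 2 without control 3 (2.62% of all genes) and 4 without DNMT3a 3 (2.75%). They became 5 without control 1 (2.95%) or without DNMT3a 1 (2.46%). The 8 higher after DNMT3b siRNA became 12 without control 2 (5.96%) and 4 without control 3 (1.85%). They became 5 without DNMT3b 2 (1.78%) and 3 without DNMT3b 3 (1.30%). Muscle forms of 3 enzymes were among the higher ones. Pgam2, the muscle phosphoglycerate mutase, had log2 fold changes of 1.40 ± 0.22 (adjusted p = 0.00392) after DNMT3a siRNA and 1.64 ± 0.22 (adjusted p = 0.00267) after DNMT3b siRNA. Pygm, the muscle glycogen phosphorylase, rose by 1.67 ± 0.21 after DNMT3b siRNA (adjusted p = 0.00257), and Eno3, the muscle enolase, by 1.21 ± 0.18 (adjusted p = 0.00529). Pygb, the brain glycogen phosphorylase, rose by 0.65 ± 0.11 after DNMT3a siRNA (adjusted p = 0.00372), and Mpc2, a subunit of the mitochondrial pyruvate carrier, by 0.78 ± 0.15 after DNMT3b siRNA (adjusted p = 0.0129). Lower after DNMT3a siRNA were Gpd2, the mitochondrial glycerol phosphate dehydrogenase (-0.89 ± 0.10, adjusted p = 0.000395), Pdk3, a pyruvate dehydrogenase kinase (-0.46 ± 0.09, adjusted p = 0.00774), and Slc16a1, a lactate transporter (-0.36 ± 0.09, adjusted p = 0.0360). Cardiomyocyte markers were higher after both siRNAs, as given above, and their part in the muscle forms was not tested. Between the knockdowns 1 was higher after DNMT3a siRNA (Slc16a7, another transporter of that family, at 0.71 ± 0.16, adjusted p = 0.0228) and 5 lower, against 4.47% and 5.08% of all tested genes. The 5 became 3 without DNMT3a 1 (1.87% of all genes), DNMT3b 2 (1.99%) or DNMT3b 3 (2.16%). Slc16a7 no longer passed when any 1 of these libraries or DNMT3a 3 was left out. Without control 2, 2 were higher (5.37% of all genes). The lower ones were Gpd2 (-0.85 ± 0.10, adjusted p = 0.000926), Slc16a1 (-0.60 ± 0.09, adjusted p = 0.00431), the pyruvate dehydrogenase kinases Pdk2 (-0.91 ± 0.16, adjusted p = 0.00814) and Pdk3 (-0.42 ± 0.09, adjusted p = 0.0152), and Mpc2 (-0.73 ± 0.15, adjusted p = 0.0136).

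Of 59 further tested genes of the hypoxia response, 4 were higher and 5 lower after DNMT3a siRNA, close to the 4.87% and 5.22% of all tested genes. After DNMT3b siRNA 5 were higher and 0 lower by edgeR, against 3.52% and 2.12% of all tested genes. For that 0, 5 genes were lower at an unadjusted p under 0.05 and 3 by DESeq2. Control 2 weighed on these counts too. Without it 11 were higher after DNMT3a siRNA (5.31% of all genes). After DNMT3b siRNA 12 were higher (5.96% of all genes) and 1 lower (4.55% of all genes). The 4 higher after DNMT3a siRNA became 2 without control 3 (2.62% of all genes) or without DNMT3a 1 (2.46%). The 5 lower became 2 without control 1 (3.86%). They became 3 without control 3 (3.11%), DNMT3a 1 (2.67%), DNMT3a 2 (4.68%), DNMT3b 2 (3.78%) or DNMT3b 3 (4.19%). The 5 higher after DNMT3b siRNA became 2 without control 3, DNMT3b 2 or DNMT3b 3, and 3 without control 1 or DNMT3a 3, and the 0 lower became 1 without DNMT3a 2 and 2 without DNMT3b 1. Cited4, a transcription coregulator, rose after both (1.75 ± 0.20, adjusted p = 0.000461, and 1.70 ± 0.20, adjusted p = 0.000870), as did Rragd, a GTPase of lysosomal nutrient sensing (0.74 ± 0.10, adjusted p = 0.00138, and 1.14 ± 0.10, adjusted p = 0.000222). Errfi1, an inhibitor of EGF receptor signalling, fell after DNMT3a siRNA (-0.54 ± 0.10, adjusted p = 0.00576) and rose after DNMT3b siRNA (0.39 ± 0.10, adjusted p = 0.0371). Arnt2, a HIF partner subunit of the nervous system, rose after DNMT3a siRNA (0.54 ± 0.12, adjusted p = 0.0145), and Bhlhe41, a transcriptional repressor, after both (0.50 ± 0.14, adjusted p = 0.0414, and 0.61 ± 0.14, adjusted p = 0.0263). Ier3, an immediate early response gene, rose after DNMT3b siRNA (0.61 ± 0.15, adjusted p = 0.0407). The other genes lower after DNMT3a siRNA were Bhlhe40, a repressor related to Bhlhe41 (-0.47 ± 0.11, adjusted p = 0.0236), Cxcr4, a chemokine receptor (-1.15 ± 0.29, adjusted p = 0.0296), Tmem45a, a transmembrane protein (-0.51 ± 0.13, adjusted p = 0.0381), and Hmox1, the inducible heme oxygenase (-0.46 ± 0.13, adjusted p = 0.0423). Between the knockdowns 5 were lower after DNMT3a siRNA and 0 higher by edgeR, against 5.08% and 4.47% of all tested genes, and 4 were higher at an unadjusted p under 0.05 and 1 by DESeq2. The 5 lower became 11 without control 1 (5.24% of all genes), 9 without control 2 (6.22%) and 2 without DNMT3a 1 (1.87%). They became 3 without DNMT3a 3 (2.63%), DNMT3b 2 (1.99%) or DNMT3b 3 (2.16%). The 0 higher became 2 without control 2 (5.37%) and 1 without DNMT3b 1 (3.12%). The 5 lower ones were Errfi1 (-0.93 ± 0.10, adjusted p = 0.000597), Cxcr4 (-1.57 ± 0.29, adjusted p = 0.00836), Edn1, an endothelin gene (-0.91 ± 0.17, adjusted p = 0.0101), Rragd (-0.40 ± 0.10, adjusted p = 0.0295) and Bhlhe40 (-0.45 ± 0.11, adjusted p = 0.0314). The endothelial and macrophage marker sums were also lower after DNMT3a siRNA than after DNMT3b siRNA, and their part was not tested.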

How the data were processed

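RNA was sequenced from 3 groups of 3 libraries of VCAM1-sorted embryonic heart cells. The authors deposited 1 table of unnormalised read counts per library, each holding 43629 gene rows. FastQC, TopHat2, HTSeq and mm10/GRCm38 are named, without versions or roles, in the submitters' processing notes. For the annotation release nothing is given in the sources used here. Another 5 lines sum up reads assigned to no gene, 49.2% to 56.2% of each table, and entered neither library sizes nor tests. Alignments that were not unique made up 36.6% to 40.1% of the total after DNMT3a siRNA, 41.5% to 42.5% after DNMT3b siRNA, and 41.3% to 42.5% in controls, a difference that cannot be told apart from the treatment.

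Symbols, coordinates and exon lengths came from GENCODE mouse release 21, which names 42548 of the identifiers. Genes were kept by filterByExpr (minimum count 10, minimum total 15), scaled by TMM, and compared with edgeR 4.0.16 in R 4.3.3 by quasi-likelihood F tests, two-sided, in 1 robust fit of 9 libraries by group (6 residual degrees of freedom, biological coefficient of variation 0.154). P-values were adjusted by the Benjamini-Hochberg method over the 16561 genes tested, and under 0.05 a gene is said to pass. Standard errors follow log2 fold changes after ±. TPM was computed from the counts and the exon lengths. Near-copies were searched with blastn 2.17.0.

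The 35 genes, the further lists and the marker lists were chosen with earlier results of these data known. Every one of the 35 is named, with values per library where its call could depend on control 2 or the block. Of the further lists, the 4 genes with the smallest adjusted p in a comparison were named by rule, and others (in glycolysis Slc16a1 over control, Slc16a7 and Pdk3 between the knockdowns, in hypoxia the fifth and later genes) after their values were seen. Deviations from the group mean of same-numbered DNMT3a and control libraries correlated across genes (r = 0.434, 0.513 and 0.459 for numbers 1 to 3), so the number was taken to pair them in the block fit. The main fit, with its standard errors and p-values, leaves this pairing out. Leaving out control 2 alone also leaves DNMT3a 2 without its same-numbered control. The replicate pairs of each group differed beyond counting error (chi-square per degree of freedom 6.94 to 65.0), and each counts as a library of its own. Alternatives were RLE or no scaling, no filter, the 2 compared groups alone, the library number as a block, leaving out libraries, and DESeq2 1.42.0.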

Additional observations from a re-analysis of the deposited data

How the results depend on the processing

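Each comparison was recomputed under 16 alternatives. For genes that passed in a comparison in at least 1 fit, 992 values were compared: 820 kept their direction and side of the threshold, 111 passed only under the alternative, 25 no longer passed and 36 changed sign. After DNMT3a siRNA against controls, 3 of the 35 genes passed. The count was 5 without the filter (5.56% of all genes), 6 with the replicate block (14.3% of all genes), 10 without the libraries numbered 2 (7.79%), 7 by DESeq2 (15.1%), and 3 to 9 when 1 library was left out, with 9 without control 2 (10.9%). After DNMT3b siRNA against controls, 4 passed. The count was 7 without the filter (4.08% of all genes), 8 with the replicate block (10.9%), 20 without the libraries numbered 2 (7.65%), 6 by DESeq2 (11.0%), and 0 to 26 when 1 library was left out, with 0 without control 3 (2.65%) and 26 without control 2 (10.5%). For DNMT3a against DNMT3b siRNA, 2 passed. The count was 1 without the filter (5.17% of all genes), 16 with only the compared groups fitted (12.0%), 7 with the replicate block (15.2%), 12 without the libraries numbered 2 (9.24%), 4 by DESeq2 (15.2%), and 1 to 12 when 1 library was left out, with 12 without control 2 (11.6%) and 1 without DNMT3a 1, DNMT3a 3 or any DNMT3b library (3.11% to 6.42%).

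For DNMT3a siRNA against controls, the log2 fold change of Tpi1 was 0.047 by library size alone, 0.071 with the block and 0.38 without the libraries numbered 2, and ran from -0.23 to 0.51 when 1 library was left out. P4ha2 was at 0.041, 0.086 and 0.56 in these fits, with a range of -0.24 to 0.52. Pdk1 was at 0.056 with the block and 0.61 without the libraries numbered 2, with a range of -0.43 to 0.72. Bnip3 was at 0.22 and 1.02, with a range of -0.52 to 1.19. Slc2a1, which passed in no fit of this comparison, ran from -0.42 to 0.42. For DNMT3b siRNA against controls, signs of genes that passed in at least 1 fit turned only when 1 library was left out. Their values then ran over -0.020 to 0.82 for Slc2a1, -0.17 to 0.78 for Pfkl, -0.13 to 0.49 for Pfkp, -0.0077 to 0.75 for Pgk1 and -0.20 to 1.23 for Egln3. They ran over -0.055 to 0.84 for Vegfa, -0.11 to 1.60 for Bnip3, -0.050 to 0.65 for Ndrg1, -0.066 to 0.35 for P4ha1 and -0.067 to 0.69 for P4ha2. Pfkfb3, Adm and Ddit4, which passed in no fit of this comparison, also changed sign in some fits. The causes were not tested. The library number did not pair the other groups: same-numbered deviations correlated at r = 0.212, 0.101 and 0.0334 for DNMT3b and control libraries and at 0.161, 0.0776 and 0.0414 for DNMT3a and DNMT3b libraries, so the block there shares only a number. Scaling by RLE or by library size alone left all 3 counts as they were.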

Other observations

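Further genes of the same pathways were also high in control 2, although to a lesser degree as lists. Of the 59 further hypoxia genes tested, 49 were higher in control 2 than the mean of controls 1 and 3 on the log2 scale, with a median of 0.39, and 11 (18.6%) exceeded it by more than 1, against 3.30% of all tested genes. The most raised was Hif3a, an inhibitory relative of the HIF alpha subunits, at 4.26-fold. Fam162a, a mitochondrial protein induced by HIF, followed the same pattern, with 35.7, 50.4 and 37.1 CPM with DNMT3a siRNA, 54.8, 58.8 and 58.9 CPM with DNMT3b siRNA, and 25.6, 92.8 and 32.9 CPM in controls. Apln, the apelin peptide gene, was at 3.02-fold. Of the 40 further glycolysis and lactate genes, 27 were higher in control 2, with a median of 0.25, and 4 (10%) exceeded it by more than 1. Among these Pygl, the liver glycogen phosphorylase, was at 4.11-fold and Eno1 at 2.05-fold. These genes were picked after their values were seen, and no test was run on them.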
